A study of Mus musculus with 2 samples.

Results

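The neurofilament genes are the 5 mouse genes Nefl, Nefm, Nefh, Ina and Prph, whose proteins build the intermediate filaments of nerve cells. They were found by gene identifier in the deposited tables, where all 5 were present among 43346 Ensembl genes. The tissue was whole midbrain of healthy newborn mice (postnatal day 0) of the strain B6NTac;B6NCrl/Lap, males and females pooled. Total RNA, depleted of ribosomal RNA and of short molecules, was sequenced in paired reads from stranded libraries. There was 1 group of 2 libraries from independent isolates, replicate 1 from 15 animals and replicate 2 from a pool whose size the labels do not give. There were no groups to compare, and an exact test on 2 values could not pass a usual threshold, so no test was run and each comparison below gives the value in each library.

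Neurofilaments are the main intermediate filaments of axons and set their calibre. The light, medium and heavy chains (Nefl, Nefm, Nefh) and alpha-internexin (Ina) assemble together in the central nervous system, and peripherin (Prph) joins them mainly in peripheral neurons and in central neurons that project to the periphery. All share a central coiled-coil rod. The medium and heavy chains carry long tails with lysine-serine-proline motifs that are phosphorylated in axons, and the heavy chain is known as the member that comes latest in development.

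At the end of the rod, 30 coding bases of the leading transcripts were aligned without gaps. The stretch was located by an amino acid pattern present in all 5 members (YR.LLEGE, the dot standing for any residue). Much of the likeness shown was therefore fixed by that choice. Capitals mark the 20 positions at which all 5 genes had the same base (GENCODE release M21, GRCm38, coding strand).
Nefl: gCtTACAGaAAaCTctTgGAaGGcGAaGAG
Nefm: gCgTACAGgAAaCTccTaGAgGGgGAaGAG
Nefh: gCtTACAGaAAgCTccTgGAaGGcGAaGAG
Ina: gCtTACAGgAAgCTccTgGAaGGtGAaGAG
Prph: aCcTACAGgAAgCTacTgGAaGGgGAgGAG
Nefl and Nefh, and likewise Nefh and Ina, shared 28 of 30 bases here, while Nefl and Prph shared 22. Counts over so short a stretch, picked for its likeness, do not measure how related the members are.

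The tails set the members apart. The coding sequence of Nefh held 51 in-frame runs of codons for lysine, serine and proline and that of Nefm held 4, while those of Nefl, Ina and Prph held 0. The stretch of Nefh below, bases 1555 to 1644 of its coding sequence, is shown because it is the first 90 bases with the most such runs, and capitals mark the 5 runs.
Nefh: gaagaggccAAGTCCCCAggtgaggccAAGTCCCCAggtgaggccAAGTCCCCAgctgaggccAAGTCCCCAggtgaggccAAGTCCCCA
Even so, only 22 of the 3895 windows of 100 bases in the Nefh transcript were repeats of another window in it. No window of the 5 leading transcripts was found in the same orientation in an annotated transcript of any other gene. The deposited spread of the estimated count over read assignments was 0 for all 5 genes in both libraries, so no read counted for a member was divided with another gene.

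The libraries held 46685706 and 72779229 estimated counts in replicates 1 and 2. Midbrain identity genes were detected, with a TPM (a transcript abundance scaled for length and library size) of at least 1 in both libraries, in 5 of 5 cases, against 0 of 4 forebrain genes and 0 of 4 hindbrain and cord genes. Of all protein-coding genes 53.8% were detected. Hoxb3 and Hoxa5, of hindbrain and cord, did pass 1 TPM in replicate 2, at 1.68 and 1.91. In replicate 1 they stood at 0.21 and 0.02. All 8 pan-neuronal genes were detected, from 9.92 ± 1.61 TPM (SD, n = 2) for Rbfox3 to 771 ± 63.0 for Tubb3. In bulk tissue, fewer cells of a type and less RNA per cell cannot be told apart. Genes annotated as small structured RNA (such as misc_RNA, snRNA and snoRNA) took 69.2% of all TPM in replicate 1 and 72.5% in replicate 2, and TPM was generally lower in replicate 2, with a median log2 ratio of replicate 2 over replicate 1 of -0.27 over genes with 10 or more counts in all.

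The newborn midbrain expressed the neurofilament genes at very unequal levels: Nefl and Ina were high, and Nefm, Nefh and Prph were low. All 5 genes were detected, where 53.8% of protein-coding genes were. Nefl and Ina together made up 92.1% of the summed TPM of the family in replicate 1 and 93.1% in replicate 2. The summed level of the 5 genes was 143 TPM in replicate 1 and 135 in replicate 2.

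Nefl encodes the light chain, the core subunit on which the other chains assemble (ENSMUSG00000022055.7, chromosome 14, 68083863 to 68089095, plus strand, mm10). It stood at 78.7 TPM in replicate 1 (18717 counts) and 84.1 in replicate 2 (37007 counts), a mean of 81.4 ± 3.83. By TPM it ranked 357th of 21474 protein-coding genes in replicate 1 and 272nd in replicate 2. Nefl led the family in both libraries.

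Ina encodes alpha-internexin, a filament protein known from young neurons (ENSMUSG00000034336.3, chromosome 19, 47014698 to 47025327, plus strand). It stood at 52.9 TPM in replicate 1 (12015 counts) and 41.9 in replicate 2 (17614 counts), a mean of 47.4 ± 7.77. Its rank among protein-coding genes was 643 in replicate 1 and 726 in replicate 2. Both libraries of Ina lay below both of Nefl.

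Nefm encodes the medium chain (ENSMUSG00000022054.7, chromosome 14, 68082590 to 68124846, minus strand). It stood at 5.93 TPM in replicate 1 (1412 counts) and 4.98 in replicate 2 (2199 counts), a mean of 5.46 ± 0.672. Nefl stood above Nefm by 13.3-fold in replicate 1 and by 16.9-fold in replicate 2. The genes are neighbours and their products meet in the same filament, and the cause of this difference was not tested. The level of Nefm includes an alternative transcript, Nefm-202, described below. The standard transcript, Nefm-201, alone stood at 5.06 TPM in replicate 1 and 4.18 in replicate 2. Of protein-coding genes, 67.4% stood below Nefm in replicate 1 and 67.7% in replicate 2.

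Nefh encodes the heavy chain (ENSMUSG00000020396.8, chromosome 11, 4938754 to 4948064, minus strand). It stood at 3.35 TPM in replicate 1 (954 counts) and 2.38 in replicate 2 (1253 counts), a mean of 2.87 ± 0.686. This was the widest relative spread of the 5 genes in TPM. Both values were below both values of Nefm.

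Prph encodes peripherin (ENSMUSG00000023484.9, chromosome 15, 99055174 to 99058978, plus strand). It stood at 2.07 TPM in replicate 1 (237 counts) and 2.04 in replicate 2 (430 counts), the lowest level of the 5 genes in both libraries. The deposited credibility bounds of TPM, whose level the sources used here do not give, ran from 1.81 to 2.33 in replicate 1 and from 1.84 to 2.22 in replicate 2. Prph was thus present at about the middle of the protein-coding genes, 50.8% of which stood below it in replicate 1 and 53.0% in replicate 2.

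**Figure D1:**
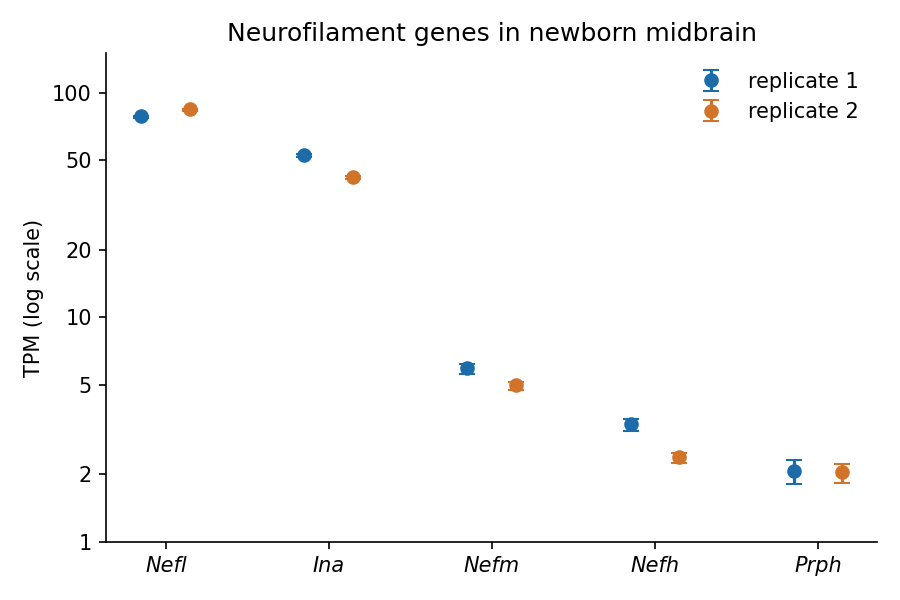
Level of each neurofilament gene in each library, in TPM on a log scale. Points are the deposited values and bars the deposited credibility bounds, and Nefl and Ina (41.9 to 84.1 TPM) lie far above Nefm, Nefh and Prph (2.04 to 5.93).

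Ratios taken within a library need no scaling between libraries. Each is a log2 ratio of TPM + 0.1, called when both libraries reached 2-fold in the same direction. Of 10 pairs 7 were called. The share of all gene pairs that would be called was not computed, so this count describes these genes only. Nefl exceeded Nefm by 3.88 ± 0.24 (log2, SD, n = 2), Nefh by 4.80 ± 0.40 and Prph by 5.24 ± 0.08. Ina exceeded Nefm by 3.09 ± 0.06, Nefh by 4.01 ± 0.10 and Prph by 4.45 ± 0.22. The called pairs thus separate Nefl and Ina from the other members, with Nefm also above Prph by 1.36 ± 0.16.

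The 3 pairs not called were neighbours in the order of levels. Nefl exceeded Ina by 0.57 in replicate 1 and 1.00 in replicate 2. Nefm exceeded Nefh by 0.81 and 1.03, and Nefh exceeded Prph by 0.67 and 0.21. In each of these pairs the order was the same in both libraries. The difference between the means of Nefh and Prph, 0.44 on the log2 scale, was little larger than its SD of 0.32, so their order is the least certain.

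**Figure D2:**
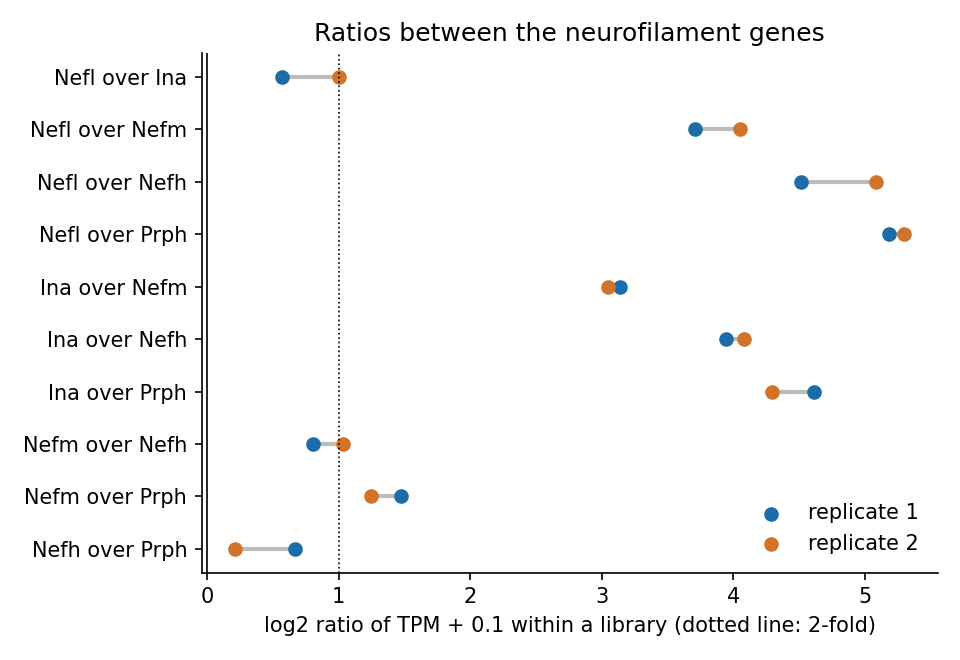
Log2 ratio of TPM + 0.1 for each pair of neurofilament genes, with 1 point per library joined by a grey line, and a dotted line at 2-fold. The pairs of Nefl or Ina with a lower member lie at 3.05 and above in both libraries, while Nefl over Ina, Nefm over Nefh and Nefh over Prph have at least 1 library below the dotted line.

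Expressed as shares of the summed TPM of the 5 genes, Nefl took 55.0% in replicate 1 and 62.1% in replicate 2, and Ina took 37.0% and 31.0%. Nefm took 4.15% and 3.68%, Nefh 2.34% and 1.76%, and Prph 1.45% and 1.51%. The balance between Nefl and Ina therefore was not the same in the isolates.

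To see how far each gene differed between the isolates, estimated counts were scaled by the trimmed mean of M-values (TMM) and expressed as the log2 ratio of replicate 2 over replicate 1. None of the 5 genes differed by 2-fold, as 17.0% of 18554 genes tested did (10 or more counts over both libraries; 9.21% higher in replicate 2 and 7.76% higher in replicate 1). Among the 10282 genes with 1000 or more counts, 0.622% did. All members except Prph, with a summed count of 667, were counted that deeply.

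Nefl had the largest ratio of the family, 0.38 higher in replicate 2, with a 95% counting interval of 0.35 to 0.40. Of 509 genes with a summed count within 2-fold of that of Nefl, 5.89% differed between the libraries by as much or more in either direction. Ina differed by -0.05 (interval -0.09 to -0.02) and Nefm by 0.03 (-0.06 to 0.13). Nefh differed by -0.21 (-0.33 to -0.09) and Prph by 0.25 (0.02 to 0.49). The intervals are exact binomial intervals for counting error alone. They leave out variation between isolates, and without molecular identifiers the reads need not be independent molecules.

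For genes counted about as deeply as Nefh, Ina, Nefm and Prph, differences of the same size were common: 50.5%, 81.4%, 89.8% and 59.5% of such genes, respectively, differed by as much or more. The sign for Nefm and Prph depended on the scale, as unscaled TPM gave -0.25 and -0.02. A ratio of members is free of that choice. On counts, Nefl moved against Ina by 0.43 (log2, replicate 2 minus replicate 1, counting SE 0.021), against Nefh by 0.59 (SE 0.063) and against Nefm by 0.34 (SE 0.051). Against Prph it moved by 0.12 (SE 0.117), which is within counting error.

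Genes of other tissues also differed between the isolates, and their part in these differences was not tested. The 4 hindbrain and cord genes summed to 0.590 TPM in replicate 1 and 4.81 in replicate 2, and 3 of 4 were at least 2-fold higher in replicate 2, where 9.21% of all genes tested were. The 6 keratins of the list of other filament genes, which are genes of epithelia, summed to 2.62 and 12.9 TPM, and 5 of 6 were at least 2-fold higher in replicate 2. The 5 Schwann cell genes summed to 9.74 and 8.16 TPM, of which Pmp22, also expressed outside Schwann cells, gave most, at 8.56 and 7.18.

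**Figure D3:**
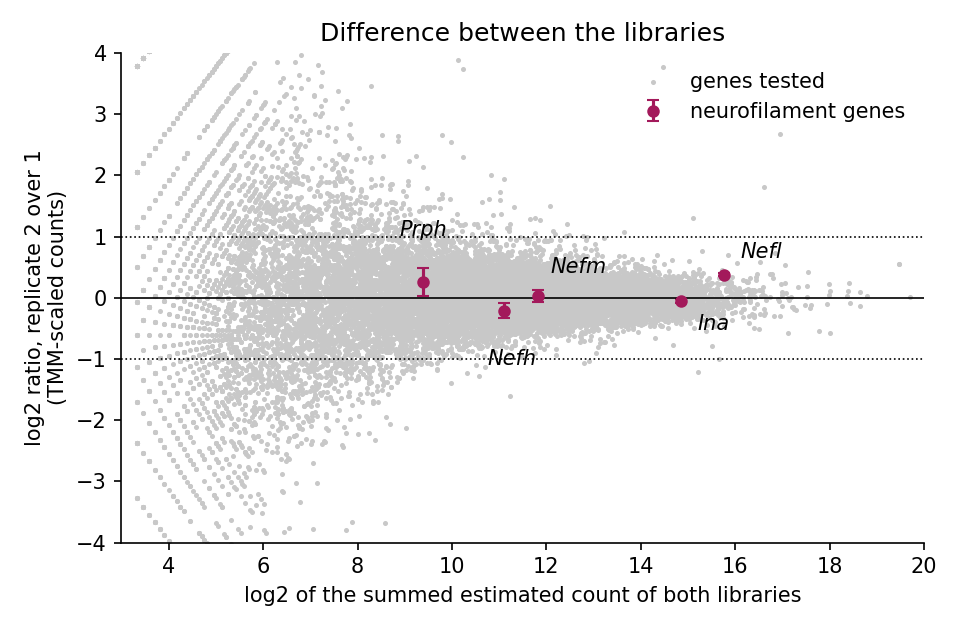
Log2 ratio of replicate 2 over replicate 1 (TMM-scaled counts) against the log2 of the summed estimated count, with all genes tested in grey and the neurofilament genes in colour with 95% counting intervals. All 5 lie within the dotted lines at 2-fold, Nefl highest at 0.38, and 774 genes lie outside the plotted range of ratios.

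Nefl and Nefm lie tail to tail on chromosome 14, on opposite strands, with a gap of 30187 bases between the end of Nefl and the last exon of the standard Nefm transcript, Nefm-201. The annotation gives Nefm an alternative transcript, Nefm-202, that leaves out this last exon and runs on through the gap into Nefl. Its own last exon overlaps the first exon of Nefl by 1108 bases on the other strand, or 32.8% of the Nefl transcript. The alternative form has 470 codons in place of 848. It leaves the standard form after coding base 1199, within the rod end shown above (bases 1192 to 1221), and so lacks the tail of the medium chain.

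The junctions behind exon 2 tell the Nefm forms apart and are shown with the shared exon 2 in lower case and the exon that follows in capitals.
Nefm-201: gatcgccgcgtacagGAAACTCCTAGAGGG
Nefm-202: gatcgccgcgtacagACTATGGAAGCTGAG
The standard form Nefm-201 carried 85.3% of the gene's TPM in replicate 1 and 83.9% in replicate 2, on 1185 and 1811 estimated counts. Nefm-202 carried 14.7% and 16.1%, on 227 and 388 counts with a deposited spread of 18.5 and 22.5 counts. In its TPM this was 0.870 and 0.800. Whether the reads of Nefm-202 came from the junction or from the stretch opposite Nefl cannot be read from the deposited tables. The labels call the libraries stranded, but the sources used here do not say whether the counting used strand. The spread of 0 in the Nefl count shows that its reads were not divided with Nefm-202.

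**Figure D4:**
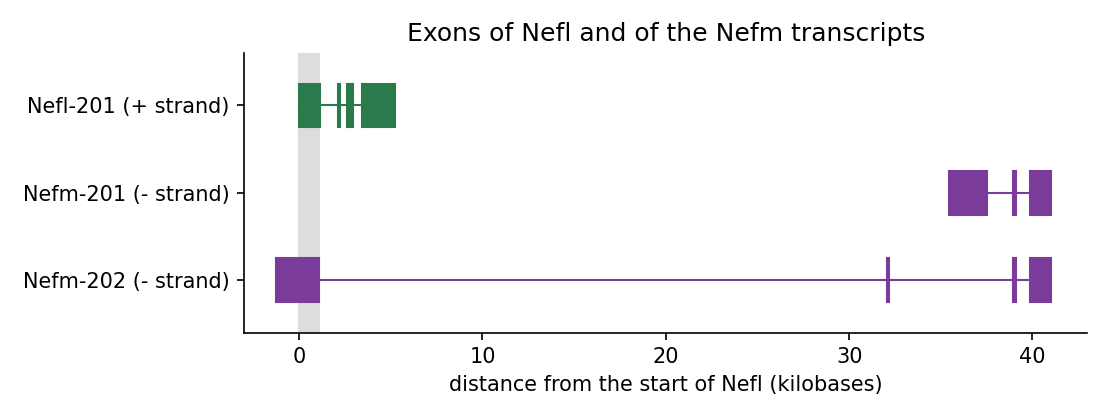
Exons (boxes) and introns (lines) of Nefl and the annotated Nefm transcripts, drawn to scale as the distance from the start of Nefl in kilobases. The grey band marks the 1108 bases in which the last exon of Nefm-202 lies opposite the first exon of Nefl.

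The other members were counted as 1 transcript each, apart from Prph. Peripherin is known in mouse in a longer form that keeps an intron in its coding sequence. Prph-202 holds 96 bases that Prph-201 lacks, 32 codons in frame, at chromosome 15, 99056937 to 99057032 (mm10, plus strand). They are shown with the first and last pair of bases, which have the GT and AG of an intron's ends, in capitals.
Prph-202: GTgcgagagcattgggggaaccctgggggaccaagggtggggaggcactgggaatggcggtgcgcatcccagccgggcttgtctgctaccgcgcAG
Prph-201, without this stretch, carried 97.3% of the gene's TPM in replicate 1 and 100% in replicate 2. The form that keeps it had 6.87 estimated counts in replicate 1 (deposited spread 8.73) and 0 in replicate 2 (spread 6.72). At this depth the longer form was not detectable above the uncertainty of assigning reads.

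Ina also has an annotated neighbour on the other strand. Of its 3141 windows of 100 bases, 357 matched the opposite strand of a transcript of Nt5c2, but its count, too, had a deposited spread of 0.

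Neurons that use peripherin in the midbrain include those of the oculomotor and trochlear nuclei and of the mesencephalic trigeminal nucleus, so marker genes of cholinergic motor neurons and of sensory neurons were set beside Prph. Of 8 cholinergic and oculomotor genes 2 were detected, where 53.8% of protein-coding genes were. The 2 were Isl1 at 1.86 ± 0.573 TPM and the choline transporter Slc5a7 at 1.05 ± 0.0707. The vesicular acetylcholine transporter Slc18a3 stood at 0.860 and 1.37 TPM, Chat, which makes acetylcholine, at 0.0900 and 0.160, and Mnx1, a motor neuron factor of the spinal cord, had 0 counts in both libraries. The whole list summed to 3.80 TPM in replicate 1 and 5.59 in replicate 2, and 3 of the 7 genes tested were at least 2-fold higher in replicate 2, which was also the library with the higher scaled count of Prph.

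Of 8 sensory neuron genes 1 was detected, where 53.8% of protein-coding genes were. That gene was Pou4f1 at 3.46 ± 0.410 TPM, a transcription factor also expressed in midbrain neurons. The other 7 stood below 1 TPM in both libraries, among them the pain channel genes Trpv1 at 0.0900 and 0.0600 and Scn10a at 0 and 1 count. The list summed to 4.96 and 4.92 TPM. The part of any of these cells in the level of Prph was not tested.

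Set among other intermediate filament genes, the neurofilament genes held about as much TPM as the 17 others listed together. They summed to 143 TPM in replicate 1, against 143 for the others, and to 135 in replicate 2, against 157. Vim, the filament of progenitors, glia and vessel cells, stood at 97.0 ± 6.59 TPM, and Nefl reached 0.853 and 0.828 times its level. The nuclear lamins Lmna, Lmnb1 and Lmnb2 stood at 12.9 ± 0.976, 9.43 ± 3.37 and 8.60 ± 0.0495, all below Ina and above Nefm. Nes, the filament of neural stem cells, stood at 5.98 ± 2.69. Gfap, the filament of astrocytes, stood at 4.16 and 6.68 TPM, so both lay near Nefm. Of the 17 other filament genes 8 were detected, a share near the 53.8% of protein-coding genes. Another 6 stood below 1 TPM in both libraries, among them the muscle gene Des and the lens genes Bfsp1 and Bfsp2.

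**Figure D5:**
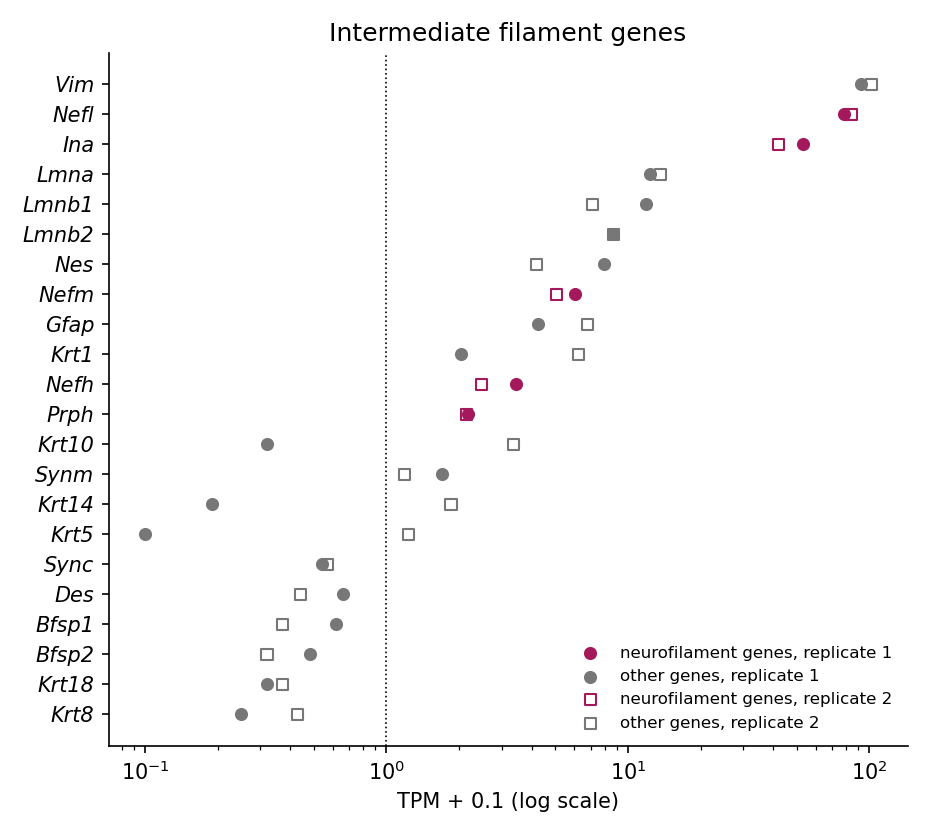
TPM + 0.1 of the neurofilament genes and 17 other intermediate filament genes in each library on a log scale, ordered by mean TPM, with a dotted line at 1. Vim, Nefl and Ina lead, Nefm, Nefh and Prph lie between 2.04 and 5.93 TPM, and several keratins differ widely between the libraries.

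Genes whose products join, modify, carry or clear neurofilaments were all detected, where 53.8% of protein-coding genes were. None of them differed by 2-fold between the libraries, but all except Capn1 and Hspb1 had 1000 or more counts, and only 0.622% of all genes counted that deeply did. The 6 linkers to other parts of the cytoskeleton were led by the microtubule proteins Map1b at 183 ± 22.3 TPM and Mapt at 136 ± 18.3, followed by the crosslinkers Macf1 at 69.9 ± 14.5 and Dst at 35.7 ± 7.69. Plec, which encodes plectin, stood at 8.04 ± 0.368. Map1b and Mapt thus stood above Nefl, and Dst stood below Ina.

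Of the 13 genes of kinases and partners that act on neurofilament tails, Cdk5r1 led at 78.6 ± 2.26 TPM, close to the level of Nefl. It activates Cdk5, which phosphorylates the lysine-serine-proline motifs and stood at 17.9 ± 0.148. The kinases Gsk3a and Mapk9 stood at 31.3 ± 0.841 and 28.5 ± 7.05. All 13 thus stood above Nefh, the member with the most such motifs.

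The 7 motor genes were led by the kinesin light chain Klc1 at 108 ± 21.3 TPM, Kif5c at 74.0 ± 19.6, the dynein heavy chain Dync1h1 at 58.2 ± 12.0 and Kif5a, a kinesin heavy chain that carries neurofilaments, at 47.8 ± 4.42. Among 7 genes of turnover and folding, the ubiquitin ligase Trim2, which acts on the light chain, stood at 55.2 ± 2.71, the ligase Stub1 at 40.3 ± 1.02 and the protease Capn2 at 17.1 ± 1.26. Of the 4 genes tied to Nefl mRNA, Sod1 stood at 34.5 ± 1.87, Tardbp, whose product binds that mRNA in human, at 19.1 ± 1.48 and Arhgef28 at 3.24 ± 0.396.

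By distance of log2(TPM + 1) over the 2 libraries, the protein-coding genes nearest to Nefl in level were Ppp1ca at 78.2 and 83.2 TPM and Epn1 at 77.4 and 81.7. Nearest to Ina were Rab6b at 53.2 and 41.8 and Rbfox2 at 53.4 and 41.8. Nkd2 and Slc25a28 were nearest to Nefm, Csgalnact2 and Wdpcp to Nefh, and Itpripl1 and Haus1 to Prph. With 2 libraries of 1 tissue such likeness is a match of level.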

How the data were processed

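Genes and transcripts were quantified by the authors on mm10 with the GENCODE M4 annotation, per the deposited notes; the sources used here name no programs. Deposited expected counts divide reads that fit several features. Deposited TPM and FPKM scale counts by effective length, and the deposited isoform percent is a transcript's share of its gene's TPM. Symbols, exons and sequences came from GENCODE M21 (GRCm38, the same assembly), which matched 42462 of 43346 gene identifiers.

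Levels are mean and SD of TPM (n = 2). Between the libraries, expected counts were rounded, genes with 10 or more counts in all were kept, 0.5 counts were added, and TMM factors came from edgeR 4.0.16 (R 4.3.3), with DESeq2 1.42.0 size factors as an alternative. The procedure was run on simulated data whose changes were larger than any difference of the members between the libraries. That run therefore does not bear on differences of the size reported here. Coding sequences were read with Biopython 1.88. With 1 library on each side no p-value was computed. Total counts of 46685706 and 72779229 limit the precision.

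Named were all members, up to 5 genes per list with the highest TPM or below 1 TPM in both libraries, and the 2 genes nearest in level. Others (such as Plec, Arhgef28 and Slc18a3) were chosen for their role with their values known. The members and lists were chosen with earlier results of these data known. A few list members are not reported here.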

Additional observations from a re-analysis of the deposited data

How the results depend on the processing

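Under 128 alternatives to the values above, no called ratio changed sign and 99 values stayed within the spread between the libraries or, for differences between libraries, the counting interval. A value from 1 library alone lies within the SD of 2 by construction and is not counted. The 99 still include settings that could hardly move a value. These are the protein-coding forms alone and, for ratios within a library, FPKM. The tally thus does not measure how robust the values are. The unit sets the level: means in FPKM were 147 for Nefl, 84.4 for Ina, 9.73 for Nefm, 5.07 for Nefh and 3.69 for Prph, and TPM rescaled to protein-coding genes gave 389, 224, 25.9, 13.5 and 9.79, in the same order. With a pseudocount of 1, the log2 ratio was 4.75 for Nefl over Prph, 2.90 for Ina over Nefm, 3.65 for Ina over Nefh, 3.98 for Ina over Prph, 0.75 for Nefm over Nefh and 1.08 for Nefm over Prph. With counts per annotated length, Nefl over Prph was 5.36 and the share of Prph 1.36%. Scaled by the total count, the log2 ratio between libraries was 0.34 for Nefl and -0.091 for Ina. In unscaled TPM it was 0.10 for Nefl, -0.34 for Ina, -0.25 for Nefm, -0.49 for Nefh and -0.021 for Prph, so Nefm and Prph changed sign; TPM is set by the whole library, structured RNAs included. Genes at least 2-fold different numbered 3148, or 4926 with no filter on low counts and 819 with a summed count of at least 100, as fewer poorly counted genes enter. As a share of counts Nefm-201 held 83.1%, and by the posterior mean Prph-201 held 96.6% of its gene. Each library taken alone gives the values printed beside each gene in the text. All annotated forms measured were protein-coding, so leaving out other forms changed values only by the rounding of the summed TPM. No paired analysis of groups was possible because there is 1 group; ratios between genes are paired within a library. Counts of 237 and 430 limit the precision of Prph most.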
